A study of Mus musculus with 12 samples.

Results

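SOX2 regions at gene ends were those of the asynchronous peak list whose midpoint lay within 1 kb of either end of a protein-coding gene span on chromosomes 1 to 19 and X. There were 772 of them among 10351 distinct asynchronous regions, or 7.46% (exact 95% interval 6.96 to 7.98%). The cells were E14, a mouse embryonic stem cell line, and the libraries fell into 4 groups of 3, namely mitotic ChIP, mitotic input, asynchronous ChIP and asynchronous input. Mitotic cells had been held overnight in nocodazole, a drug that blocks the spindle, and after fixation were purified by sorting on H3S10p, a histone mark of condensed chromosomes, while asynchronous cells were taken as they grew. The medium of all groups contained 10% serum, LIF and a pair of kinase inhibitors, PD184352 (0.8 μM, against MEK) and CHIR99021 (3 μM, against GSK3). Both pull-downs used the antibody Sox2 Y-17. Each condition was represented by 1 peak list from its pooled replicates, without scores or read counts, so no value has a replicate error and sequencing depth is unknown. Intervals are exact (Clopper-Pearson) and cover counting error only, and no test over samples was possible.

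SOX2 is a transcription factor that bends DNA through its HMG domain and holds embryonic stem cells in the pluripotent state together with POU5F1 (OCT4) and NANOG. Its HMG domain recognises a short core, taken here as CATTGT or CTTTGT on either strand. With POU5F1, SOX2 can occupy a composite site in which such a core stands beside part of an octamer site. Much of its binding in stem cells lies at enhancers away from genes. The start of a gene holds the promoter, where RNA polymerase II assembles, while its finish lies where the transcript is cleaved and polyadenylated.

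Gene-end regions gathered at gene starts, just upstream of the first transcribed base, with no such peak at gene finishes. Strand was taken from the RefSeq promoter table, which gave it for 17274 of 21631 protein-coding genes (79.9%). The genes without strand were not spread evenly, and all 25 gene-end regions on chromosome 18 lay only near such genes. Results on starts, finishes, promoters and head-to-head pairs therefore leave these regions out. Around the starts of genes with strand, 150 midpoints lay in the 250 bp upstream and 85 in the 250 bp downstream. Bins of 250 bp between 1 and 5 kb from a start held 22.8 ± 6.39 midpoints (SD over 32 bins), so the bin upstream of the start was 6.57 times and the bin downstream 3.72 times that level. The other bins within 1 kb of a start held 28 to 44. In steps of 50 bp the highest count, 49, fell between 100 and 50 bp upstream. Around gene finishes the corresponding bins held 18 midpoints upstream and 26 downstream, against 21.6 ± 4.59 per bin between 1 and 5 kb (SD over 32 bins). The other bins within 1 kb of a finish held 25 to 32, and the bins between 1 and 5 kb held 12 to 32. Genes that share a promoter region contribute together, so each region was counted once per kind of end, at its nearest one.

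**Figure D1:**
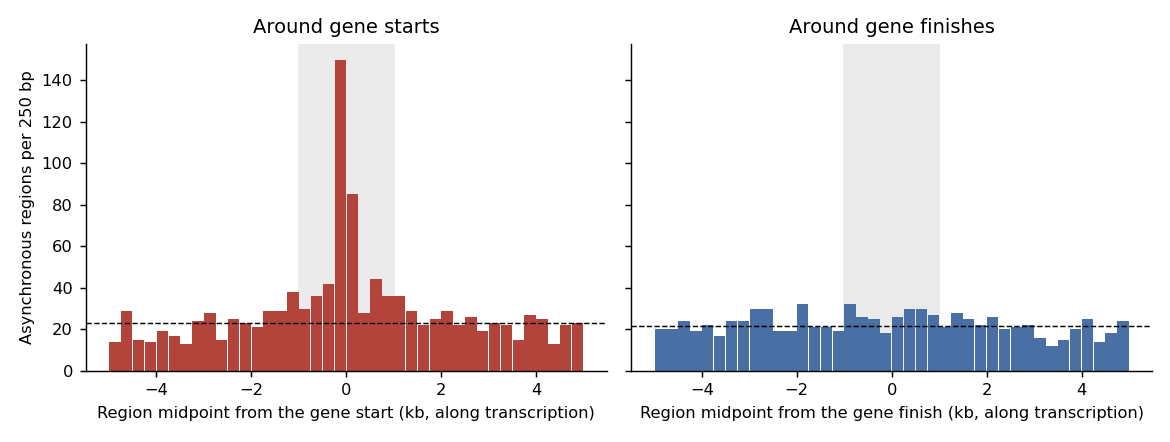
Number of asynchronous SOX2 region midpoints per 250 bp, from 5 kb before to 5 kb after gene starts (left) and gene finishes (right), along the direction of transcription. The grey band marks the 1 kb that defines gene-end regions and the dashed line is the mean of the bins between 1 and 5 kb; the bins beside the start reach 150 and 85, and no such rise is seen at finishes.

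Sequences at the promoters are shown because they differ in whether they hold CATTGT or CTTTGT. Only these exact letters were searched as SOX cores, and variants of them were not. The RefSeq promoter table (GRCm38.p6, the assembly that mm10 names) gives 300 bases per listed start, 250 before it and 50 from it on. Both SOX cores (CATTGT and CTTTGT), the octamer letters ATGCAAA and the composite of a SOX core, 1 base and ATGCAAA were searched on both strands. Each composite contains a SOX core and an ATGCAAA match. The composite was found in the promoters of Nanog and Astn1 only, of 17274 genes with 1 window each, and both promoters carried a gene-end region. Nanog is a homeobox factor of the pluripotency network, and Astn1 encodes an adhesion protein of migrating neurons. Capitals mark the SOX core and the ATGCAAA letters, here read as ACAATG or ACAAAG and as TTTGCAT because both stand on the strand opposite to the gene.
Nanog, chr6:122707381-122707460, plus strand: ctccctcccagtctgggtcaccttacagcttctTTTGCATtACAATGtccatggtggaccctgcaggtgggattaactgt
Astn1, chr1:158362140-158362169, plus strand: gagagattTTTGCATtACAAAGacgcaatt

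The Nanog stretch began 108 bases before the gene start, and its SOX core lay 35.5 bp from the midpoint of a region 471 bp wide (chromosome 6, 122707154 to 122707624). The Astn1 core lay 31.5 bp from the midpoint of a region 337 bp wide (chromosome 1, 158362022 to 158362358). The Astn1 stretch lay before the listed start but inside the gene span, which begins at 158362102. Among the 16791 promoters without a gene-end region none held the composite, and a count of 0 allows a share of up to 0.0179%.

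Promoters overlapped by a gene-end region held a SOX core more often than the remaining promoters. Of 279 overlapped promoters, 149 held CATTGT or CTTTGT (53.4%, 95% interval 47.4 to 59.4%), against 4184 of 16791 promoters without a gene-end region (24.9%, 24.3 to 25.6%). Among the 279 were 45 promoters of genes in head-to-head pairs, described below, which can share a region and bases. The 279 promoters are therefore not all independent. CATTGT was present in 26.5% of overlapped promoters and 10.3% of the others, and CTTTGT in 31.9% and 16.6%. The share over all 17274 promoters was 25.35%. When every gene with a region midpoint within 1 kb of its start was counted, whether or not the region reached the promoter window, 195 of 481 promoters held a core (40.5%, 36.1 to 45.1%). ATGCAAA was present in 5.73% of overlapped promoters (3.31 to 9.15%) and 4.22% of the others (3.92 to 4.53%), and its intervals overlapped. The CCAAT box, a general promoter element, was present in 54.8% and 39.4%, and the GC box GGGCGG in 64.5% and 46.5%. Median GC content was 59.3% in overlapped promoters and 56.3% in the others; the part of base composition in these shares was not tested.

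Within the overlapped promoters, SOX cores crowded at the midpoint of the region. The density was 6.84 cores per kb within 25 bp of the midpoint, 4.36 per kb from 25 to 50 bp and 2.14 per kb from 50 to 100 bp. Beyond that it was 0.828 per kb from 100 to 150 bp, 0.967 per kb from 150 to 250 bp and 0.895 per kb from 250 to 450 bp, close to the 0.993 per kb of promoters without a gene-end region. The nearest core lay within 50 bp of the midpoint in 98 of the 149 promoters with a core and within 100 bp in 123, at a median distance of 30 bp. The other 130 overlapped promoters held neither core, which says only that these letters are not in the 300 bases searched.

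**Figure D2:**
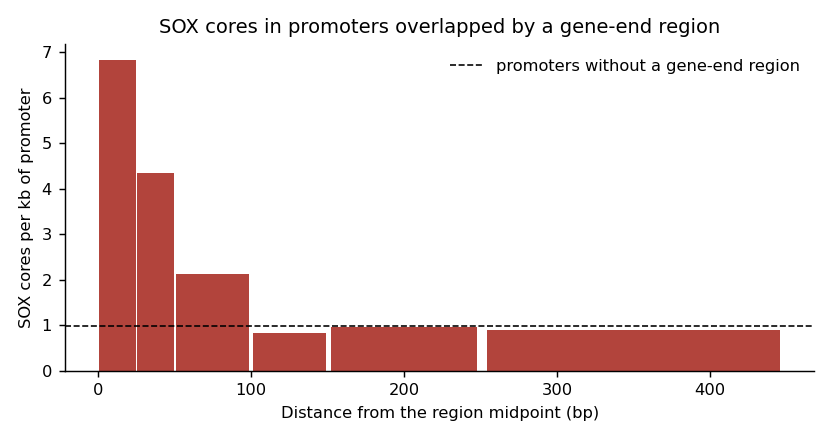
Density of SOX cores (CATTGT or CTTTGT on either strand, per kb of promoter sequence) by distance in bp from the midpoint of the gene-end region, over 279 overlapped promoters. Bars span their distance range and the dashed line is the density of 16791 promoters without a gene-end region; the density is 6.84 per kb at the midpoint and 0.828 per kb at 100 to 150 bp.

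A gene end near a SOX2 region belonged to 862 protein-coding genes, 3.99% of the 21631. Of the genes with strand, 481 (2.78%) had a region within 1 kb of the start and 224 (1.3%) within 1 kb of the finish, and 21 had both. The 21 include genes shorter than 2 kb, such as Mif and H4c4, in which 1 region lay near both ends. By region, 451 of 772 lay near a start (58.4%, 54.8 to 61.9%), 214 near a finish (27.7%) and 28 near both, while 135 lay only near ends of genes without strand. One gene was near for 678 regions and a pair of genes for 93. A region of 550 bp on chromosome 18 (37840683 to 37841232) lay near the shared end of 24 genes, most of them gamma-protocadherins, cell adhesion proteins whose variable first exons are joined to common last exons. Those 24 genes count as 24 of the 862 though they share 1 region. The midpoint fell outside the gene for 261 of the 451 regions near a start (57.9%) and for 117 of the 214 near a finish (54.7%). The base of the gene end itself was covered by 229 regions (29.7%).

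By the rule no midpoint was further than 1 kb from an end. Within that limit the distance to the nearest end had a median of 374 bp (quartiles 113 and 656 bp), and 174 regions (22.5%) lay within 100 bp. The midpoint sat exactly on the first base of Hsd17b12, an enzyme of fatty acid elongation, and 0.5 bp from the starts of Arrdc2, an arrestin-domain protein, and Setd7, a lysine methyltransferase. It lay 1 bp from the starts of Atg16l2, a relative of an autophagy factor, and Cpsf4l.

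The 1 kb limit cut through a continuous range of distances. Just inside it were regions 995.5 bp from Hoxd9, 997.5 bp from Nlrp12 and 998 bp from Cyp4f37, and just outside were regions 1000.5 bp from Atp5g3 and from St6gal1 and 1002.5 bp from Cep97. The wide region on Sox2 itself, 2061 bp (chromosome 3, 34650367 to 34652427), also fell just outside the rule, since its midpoint was 1064 bp from the nearest end of the short gene.

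Gene-end regions were somewhat narrower than the rest of the list, a difference that was not tested. Their width ran from 183 bp to 785 bp with a median of 274 bp (95% interval of the median 264 to 280 bp, quartiles 218 and 350 bp), against 183 bp to 2061 bp with a median of 291 bp (quartiles 227 and 384 bp) for the other 9579 regions. At the smallest width, 183 bp, were 41 gene-end regions (5.31%, 3.84 to 7.14%) and 419 others (4.37%, 3.97 to 4.80%). Regions near a start and no finish had a median of 275 bp and those near a finish and no start 266 bp. Width is set by the peak caller and is not a measure of binding strength. Another asynchronous region lay within 10 kb of 142 gene-end regions (18.4%, 15.7 to 21.3%) and of 1690 others (17.6%, 16.9 to 18.4%), and these intervals overlapped.

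The widest gene-end region, 785 bp, lay 694 bp upstream of the start of Slc25a1, the mitochondrial citrate carrier (chromosome 16, 17928521 to 17929305). The next lay across the starts of Pipox, a peroxisomal oxidase (767 bp), and Stk38, a kinase of the NDR family (755 bp). Regions of 737 bp and 720 bp lay outside an end of Abcg1, a cholesterol exporter, and Rif1, a regulator of replication timing. A region of 697 bp covered the finish of Nacc2, a transcriptional repressor. Among the remaining wide ones were 613 bp at the finish of Pou5f1, 605 bp inside Chil1, a chitinase-like protein, and 602 bp inside Acp6, a lipid phosphatase. Others were 601 bp upstream of Fzd10, a Wnt receptor, 597 bp upstream of Phc1, a Polycomb subunit, and 596 bp inside Bach1, a haem-sensing repressor. Regions of 672, 621 and 617 bp lay at ends of the predicted genes Gm34296, Gm52351 and Gm52006.

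The listed Notch pathway genes that were hit had their region at the start. Notch signalling passes between neighbouring cells: a ligand on one cell frees the intracellular part of the receptor on the next, which joins RBPJ on DNA and switches on Hes genes. Of 14 listed Notch genes, 6 had a region at an end (42.9%, 17.7 to 71.1%), against 3.99% of all protein-coding genes, a share that would give 0.558 genes. All 6 had it at the start, of 11 with strand. This list and those below were chosen with earlier results of these data known, so their shares describe the listed genes only. The ligand genes were Jag1, whose region of 428 bp had its midpoint 52.5 bp upstream of the start (chromosome 2, 137116359 to 137116786), and Dll1, with 276 bp at 123.5 bp upstream (chromosome 17, 15376918 to 15377193). The receptor gene Notch1 had 504 bp at 353.5 bp upstream (chromosome 2, 26503924 to 26504427). Rbpj, the DNA-binding partner, had 248 bp at 89.5 bp upstream (chromosome 5, 53555566 to 53555813). Among targets and modulators, Hes5, a repressor that keeps neural progenitors undifferentiated, had 183 bp at 108 bp inside the gene (chromosome 4, 154960643 to 154960825). Nrarp, which limits Notch signalling, had 577 bp at 86.0 bp upstream (chromosome 2, 25180384 to 25180960). The members without a region at an end were Notch2, Dll3, Dll4, Jag2, Hes1, Hey1, Lfng and Mfng, and 11 of the 14 genes (78.6%) had some region within 50 kb, against 46.03% of all protein-coding genes.

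Promoter stretches of Notch genes with and without CATTGT or CTTTGT in the bases searched are printed here. In Dll1 the nearest core lay 5 bp from the region midpoint and in Jag1 109 bp from it. The Notch1 and Nrarp promoters held neither SOX core in the letters searched. The Notch1 region had its midpoint 353.5 bp upstream of the start, beyond the 250 bases before it, so the bases at this midpoint were not searched. The Nrarp stretch is that under the mitotic region described further on. Variants of the core letters, such as the tattgt near the end of the Nrarp stretch, were not searched.
Dll1, chr17:15377011-15377090, minus strand: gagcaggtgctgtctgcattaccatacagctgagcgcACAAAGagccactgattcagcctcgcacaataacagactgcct
Jag1, chr2:137116642-137116721, minus strand: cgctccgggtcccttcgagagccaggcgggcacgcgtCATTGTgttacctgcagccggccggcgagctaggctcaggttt
Notch1, chr2:26503993-26504072, minus strand: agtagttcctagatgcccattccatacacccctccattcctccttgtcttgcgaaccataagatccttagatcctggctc
Nrarp, chr2:25180632-25180711, plus strand: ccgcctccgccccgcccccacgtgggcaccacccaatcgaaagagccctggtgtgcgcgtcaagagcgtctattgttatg

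Of 30 listed pluripotency factors, 8 had a region at an end (26.7%, 12.3 to 45.9%), where the share of all genes would give 1.20. They were spread over starts and finishes. At starts were Nanog, Lin28a, an RNA-binding protein that blocks let-7 maturation (200 bp, inside the gene at 379.5 bp), and Trim28, a corepressor of endogenous retroviruses (338 bp, 823.5 bp upstream). At finishes were Pou5f1 (613 bp, chromosome 17, 35510230 to 35510842, across the finish) and Utf1, a chromatin-associated stem cell factor (439 bp, 586 bp downstream). Dppa5a (202 bp), Rif1 (720 bp) and the ubiquitin ligase subunit gene Fbxo15 (228 bp, across an end) had regions outside ends of genes without strand. A region within 50 kb was present for 28 of the 30 factors (93.3%), against 46.03% of all protein-coding genes.

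Signalling genes of the LIF, FGF, Nodal and Wnt pathways had 7 of 28 hit at an end (25%, 10.7 to 44.9%), where the share of all genes would give 1.12. Sp5, a target of Wnt signalling, had 570 bp with the midpoint 26.5 bp upstream of the start (chromosome 2, 70474612 to 70475181). Dusp6, a phosphatase that restrains ERK, had 257 bp at 29.0 bp upstream (chromosome 10, 99263074 to 99263330). Ctnnb1, which encodes beta-catenin, had 218 bp at 854.5 bp upstream, and the ligand gene Fgf4 had 320 bp inside the gene, 850.5 bp from its finish (chromosome 7, 144864235 to 144864554). Etv4, an ETS factor downstream of FGF, had 2 regions beyond the same end, at 76.5 and 723.5 bp. Spry4, an inhibitor of FGF signalling, had 461 bp across an end, and Smad7, an inhibitor of TGF-beta signalling, 214 bp at 471.5 bp outside one. The Sp5 stretch held a facing pair of cores, the nearer one 183 bp from the region midpoint, and the nearest core of the promoter, past the start and not printed, lay 70 bp from it.
Sp5, chr2:70474674-70474753, plus strand: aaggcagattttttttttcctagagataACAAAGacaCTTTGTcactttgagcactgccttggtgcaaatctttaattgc

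Lineage transcription factors had 4 of 34 hit (11.8%, 3.30 to 27.5%), and this interval includes 3.99%. Neurog1, which drives neuronal differentiation, had 415 bp with the midpoint 55.0 bp upstream of the start (chromosome 13, 56252028 to 56252442). Meis1, a homeobox partner of HOX proteins, had 290 bp at 83.5 bp upstream (chromosome 11, 19019590 to 19019879). T, the mesoderm factor Brachyury, had 193 bp at 970 bp upstream, and Tfap2c, a trophectoderm and germline factor, 460 bp at 876.5 bp outside an end. The core in the Neurog1 promoter lay 13.5 bp from the midpoint.
Neurog1, chr13:56252182-56252261, minus strand: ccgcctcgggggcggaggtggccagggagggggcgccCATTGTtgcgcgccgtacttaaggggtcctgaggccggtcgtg

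No end was hit among the 29 chromatin regulators, 29 cell cycle and mitosis genes or 18 liver genes that were listed. A count of 0 allows up to 10.3%, 10.3% and 16.7% by the limit of 3 counts. A difference from the 3.99% of all genes was therefore not detectable. These lists do not cover their classes. The Polycomb gene Phc1 and the replicative helicase gene Mcm7 were not on them, and both had a gene-end region. Of 85 ribosomal protein genes 1 was hit, Rps23 (1.18%, 0.0298 to 6.38%), by a region of 186 bp beyond its finish.

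**Figure D3:**
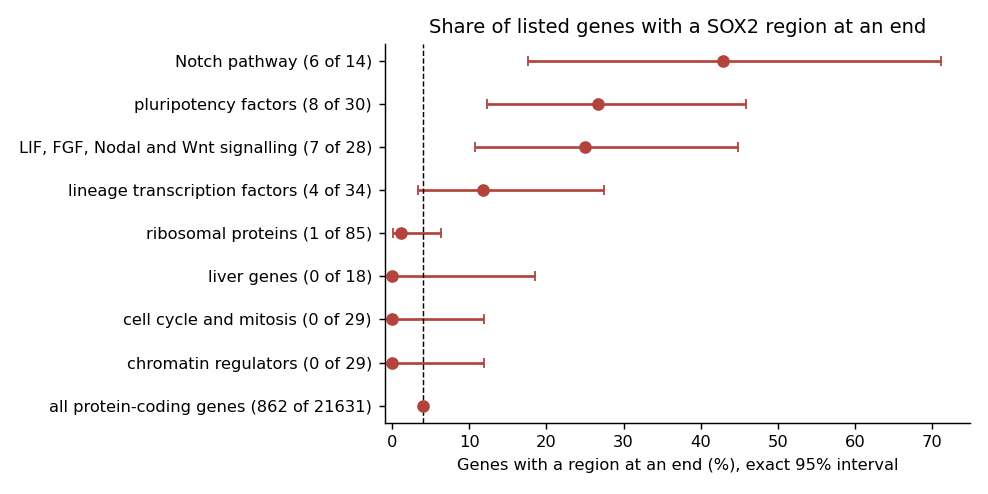
Share of the genes of each list with a SOX2 region midpoint within 1 kb of either end (%), with exact 95% intervals; counts stand beside each name. The dashed line is the 3.99% of all 21631 protein-coding genes. Notch, pluripotency and signalling genes stand at 42.9, 26.7 and 25%, and the lists were chosen with earlier results of these data known.

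**Figure D4:**
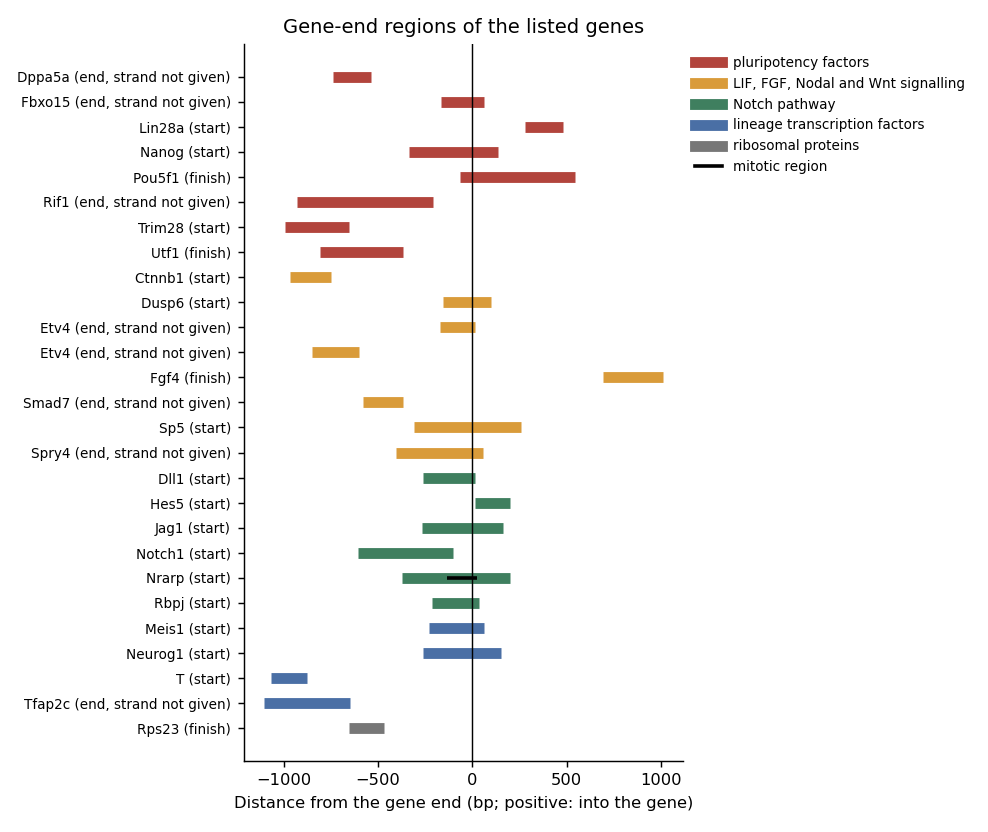
Extent of each gene-end region of the listed genes, in bp from the gene end (0; negative values lie outside the gene, positive values inside), coloured by list. Genes are labelled by the end that was hit; the black line at Nrarp is the mitotic region, and the 6 Notch genes have midpoints 52.5 to 353.5 bp from their starts.

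Head-to-head gene pairs share a stretch of promoter DNA from which both genes are transcribed outward, and 37 such pairs had a region within 1 kb of both starts. The annotation held 901 pairs of stranded genes on opposite strands with starts within 1000 bp, so 4.11% (2.91 to 5.62%) had one, at 38 regions. Genes in head-to-head pairs had a region at their start in 75 of 1791 cases (4.19%, 3.31 to 5.22%), against 406 of 15483 other stranded genes (2.62%, 2.38 to 2.89%). The pair shares its region, so the 1791 genes are not independent. Tail-to-tail pairs, whose finishes face each other, had a region in 12 of 726 cases (1.65%, 0.857 to 2.87%).

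The gap between the starts was counted as negative where the genes overlapped. This signed gap had a median of 88 bp and ran from -724 to 799 bp. Of the 38 regions, 11 had their midpoint between the starts or in the overlap of the genes. At Ranbp1 and Trmt2a, genes of Ran GTPase control and of tRNA methylation, the starts were 153 bp apart and the midpoint lay 85.5 and 67.5 bp from them (chromosome 16, 18248650 to 18248909). At Srsf7, a splicing factor, and Gemin6, a subunit of the SMN complex, the starts were 135 bp apart and the midpoint lay 22.5 bp from the first and 112.5 bp from the second (chromosome 17, 80207282 to 80207501). Cores lay 7 bp and 4 bp from these midpoints, in the stretches printed here on the strand of Ranbp1 and Srsf7.
Ranbp1, chr16:18248747-18248826, minus strand: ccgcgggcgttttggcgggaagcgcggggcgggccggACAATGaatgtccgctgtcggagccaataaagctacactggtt
Srsf7, chr17:80207356-80207435, minus strand: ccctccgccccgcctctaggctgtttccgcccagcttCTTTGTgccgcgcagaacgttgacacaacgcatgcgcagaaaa

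The head-to-head pair with the widest region was Dido1 and Gid8, with 499 bp lying 831 bp inside Dido1. Regions of 433 to 349 bp followed at Zfpl1 and Cdca5, a cohesion factor; at the chaperone gene Dnajb4 and Fubp1; at Ppme1 and C2cd3, a centriole protein; and at 1700056E22Rik and Dusp10, a MAP kinase phosphatase. Further ones lay at Brca1, a DNA repair gene, and Nbr1, an autophagy receptor; at the histone genes H2ac22 and H2bc22; at Gm46977 and the ETS repressor Etv6; and at Zcrb1 and Pphln1. Ndufaf3, an assembly factor of respiratory complex I, and Dalrd3 shared 2 regions, of 359 and 322 bp. Regions of 321 to 285 bp lay at Mrpl37 and Cyb5rl, at Pigp and Ttc3, at the replicative helicase gene Mcm7 and Ap4m1, at Btf3l4 and Txndc12, and at Stap2 and Mpnd. Among overlapped promoters of the genes in these 37 pairs, 22 of 45 held a SOX core (48.9%, 33.7 to 64.2%).

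**Figure D5:**
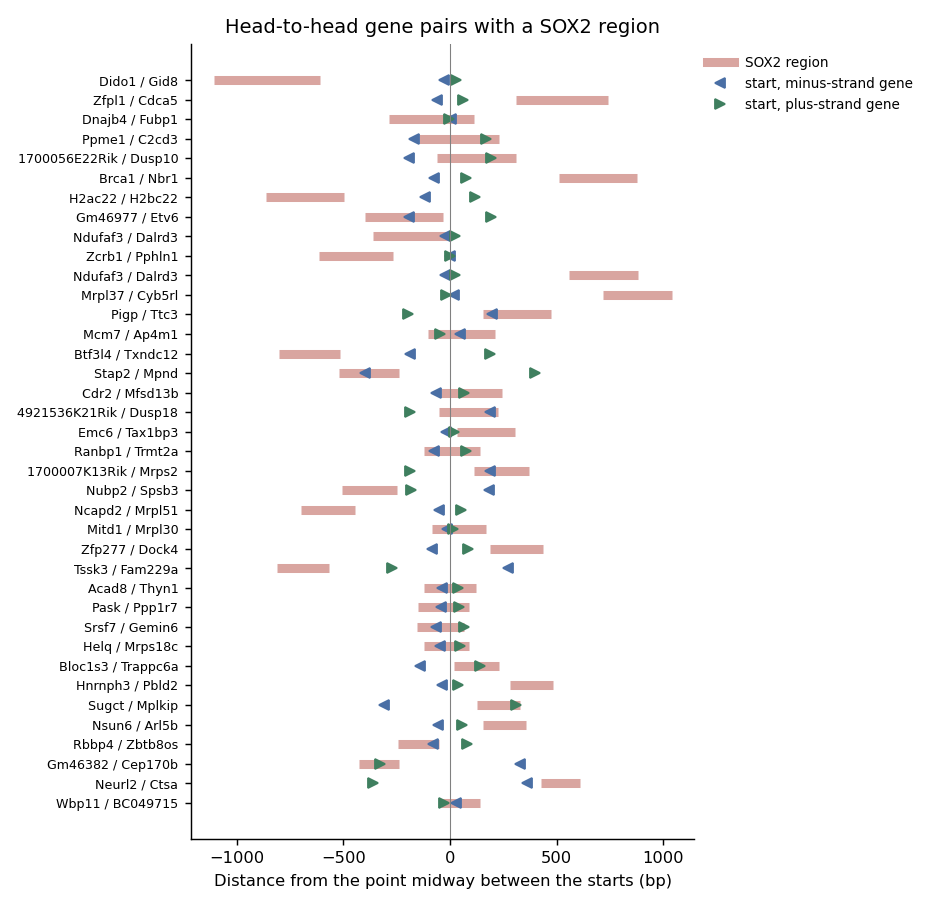
The 38 regions at 37 head-to-head gene pairs (bars), placed by distance in bp from the point midway between both starts; arrowheads mark the start of each gene and its direction of transcription. Pairs run from the widest region at the top (499 bp) to the narrowest at the bottom (183 bp), and 11 of the regions have their midpoint between the starts.

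Some genes carried more than 1 gene-end region. Tubb3, a tubulin of neurons, had 3, at 95.5 bp upstream and 583 bp downstream of its start and 873 bp before its finish. Gadd45g, a stress-response gene, had 2 regions of 441 and 442 bp, 698 and 48.5 bp upstream of its start. Insm1, a zinc finger factor of neuroendocrine cells, and Stmn1, a microtubule regulator, had 2 regions each at 1 end. Also with 2 at the same end were Alg8, Cpsf4l, Dalrd3, Etv4, Gpc2, Mettl27, Ndufaf3, Patz1, Sinhcaf, a Sin3 complex subunit, Thbs3 and the short histone gene H4c11. Genes longer than 2 kb with a region at both ends were Baz1b, Cyb5rl, Dpys, Fam189a2, Ifitm7, Sdccag8, Srrm4, Tubb3, Zcchc14 and the protocadherin genes Pcdhga5 and Pcdhga10.

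In mitotic cells 4 of 84 regions lay at a gene end (4.76%, 1.31 to 11.8%), against 772 of 10351 in asynchronous cells (7.46%, 6.96 to 7.98%), and the intervals overlapped. The mitotic list was called at the looser threshold, so the counts are set side by side only. Of the 772 asynchronous gene-end regions, 2 were overlapped by a mitotic region (0.259%, 0.0314 to 0.933%), as were 7 of the 9579 others (0.0731%, 0.0294 to 0.151%); over all asynchronous regions the share was 0.0869%.

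Both shared gene-end regions held the whole mitotic region. At Nrarp the mitotic region was 156 bp (chromosome 2, 25180627 to 25180782), with its midpoint 53.5 bp upstream of the start, and the asynchronous one was 577 bp, wider than 95.98% of the list. At Abcg1 the mitotic region was 116 bp (chromosome 17, 31057331 to 31057446), 305.5 bp outside an end, and the asynchronous one was 737 bp, wider than 99.1% of the list. Rounded down to whole bp, the mitotic and asynchronous midpoints differed by 32 bp at Nrarp and by 80 bp at Abcg1.

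The other mitotic regions at gene ends had no asynchronous region over them. One of 105 bp lay 860 bp inside the start of Aqp1, a water channel (chromosome 6, 55337107 to 55337211), and the nearest asynchronous midpoint was 4801 bp away. The other, of 145 bp, lay at ends of both Dbndd1 and Afg3l1 (chromosome 8, 123504751 to 123504895), with the nearest asynchronous midpoint 83681 bp away. Every other listed gene with an asynchronous region at an end, Nanog and Pou5f1 among them, had no mitotic region there.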

How the data were processed

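SOX2 ChIP and input libraries of mitotic and asynchronous E14 cells were processed by the authors; reads were aligned to and peaks called on mm10 with tools that the submitters' processing notes name as Bowtie2 (2.2.1) and MACS2, with no MACS2 version given in the sources used here. The deposited files are 2 lists of peak positions in bp (unit: other), called per the deposited names on 3 pooled replicates of ChIP against input, with blacklisted regions removed and q-value tags read as 0.05 (mitotic) and 0.01 (asynchronous). Input is not analysed on its own.

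Starts were counted from 1, and 181 of 10532 asynchronous entries with repeated coordinates were merged; 2 regions on Y were kept in the total but not assigned. Gene spans came from RefSeq GRCm38.p6; strand and 300-base promoters came from the RefSeq promoter table, with 1 window per gene, nearest to the span start, or that with the largest overlap. A start here is the end of the gene span by strand. Overlap meant at least 1 bp. Printed sequences reach at most 30 bases past a start or into a gene span; Astn1, within a span, has 30 bases only. Python 3.11.15, numpy 2.4.6, pandas 2.3.3 and scipy 1.17.1 were used, and interval code was tested on simulated data.

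The members, lists and rules were chosen with earlier results of these data known. Named genes were listed genes with a gene-end region, genes of the 15 widest regions, of regions shared with mitotic cells and mitotic regions at ends, of the 15 head-to-head pairs with the widest regions, genes with several regions, and the 5 midpoints nearest to an end; Astn1, Ranbp1, Trmt2a, Srsf7, Gemin6 and the genes of the last section were chosen with their values in view.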

Additional observations from a re-analysis of the deposited data

How the results depend on the processing

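No paired analysis was possible because each deposited list pools its 3 replicates, and leaving out a replicate was not possible for the same reason. Of 35 recomputed values over 11 results, 20 stayed within 1.5 times the reported count or within its interval. By construction, the number of gene-end regions was 463 with a 500 bp window, 1240 with 2 kb and 332 among regions wider than the median, and the number of genes was 507, 1358 and 383. Regions near a start numbered 451, and 532 when every start in the promoter table was used. The promoter share with a SOX core was 53.4% instead of 40.5% when only overlapped promoters were counted. Listed genes hit with 500 bp, 2 kb and wide regions only were 4, 13 and 5 for pluripotency and 6, 6 and 3 for Notch. For signalling they were 5, 14 and 3, and for lineage factors 2, 7 and 3. The 2 regions shared with mitotic cells were found under each of the 6 alternatives run. The list alternatives and the promoter-table starts were chosen after seeing the data. Depth is unknown, so a gene end without a region may hold binding that was not called.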

Other observations

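Gene families outside the fixed lists, chosen after their values were seen, are given beside the share of all protein-coding genes, and no difference between them was tested. Histone genes of the replication-dependent clusters had 8 of 63 hit (12.7%, exact 95% interval 5.65 to 23.5%), namely H2ac22, H2bc22, H3c1, H3c14, H4c1, H4c4, H4c11 and H4c12, against 3.99% of all protein-coding genes. Each gene was counted once, but H2ac22 and H2bc22 shared 1 region, as did H3c1 and H4c1, so the 8 genes are not independent. Near-identical copies of histone genes can share reads, and the part of this was not tested. Zinc finger genes named Zfp had 28 of 397 hit (7.05%, 4.74 to 10.0%), mitochondrial ribosomal protein genes 7 of 78 (8.97%, 3.69 to 17.6%) and solute carriers 19 of 375 (5.07%, 3.08 to 7.80%). The last 2 intervals include 3.99%. Olfactory receptor genes, silent outside the nose in most tissues, had 7 of 1110 hit (0.631%, 0.254 to 1.30%).

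Ends of non-coding genes lay near some gene-end regions. An end of a long non-coding RNA gene lay within 1 kb of 86 gene-end regions (11.1%, 9.01 to 13.6%) and of 398 other regions (4.16%, 3.76 to 4.57%). An end of a microRNA gene lay within 1 kb of 7 gene-end regions (0.907%) and of 18 others (0.188%). An end of a pseudogene lay within 1 kb of 2 gene-end regions (0.259%, 0.0314 to 0.933%) and of 98 others (1.02%, 0.831 to 1.25%). Those at microRNA genes included a region between Mir27b and Mir24-1 on chromosome 13 (63300921 to 63301123). A region in Dalrd3 on chromosome 9 (108568019 to 108568340) overlapped Mir191 and lay near Mir425. Another, 980.5 bp from Mir290a, the first gene of a microRNA cluster of stem cells, was counted at the finish of Nlrp12 (chromosome 7, 3217507 to 3217784).

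Gene-end regions were 7.46% of all asynchronous regions, and by chromosome from 4.37% on chromosome 15 (19 of 435, 2.65 to 6.74%) to 10.7% on chromosome 7 (60 of 559, 8.29 to 13.6%). On X they were 14 of 173 regions (8.09%, 4.50 to 13.2%). Per gene the order was another: an end was hit for 3.4% of genes on chromosome 7 (2.65 to 4.28%), 2.71% on chromosome 15 (1.68 to 4.11%) and 1.45% on X (0.795 to 2.42%), against 3.99% of all. The highest share, 9.20% on chromosome 18 (47 of 511, 6.84 to 12%), includes the 24 genes, most of them gamma-protocadherins, that share 1 region.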
